A study of Drosophila sechellia with 6 samples.

Results

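The 67 genes described here are those whose expression was at least doubled in adult female *D. sechellia* fed rotten noni, leaving aside 15 named chorion and eggshell genes. They were chosen by the measured ratio of noni to control itself, out of 17273 genes in the deposited table. A gene was taken if Cuffdiff, the program that estimated expression, gave it the status OK, if its name had the form GM and a number, if its mean over both diets was from 10 to under 2000 FPKM, and if its noni value was at least 2 times its control value. FPKM is the number of sequenced fragments of a gene, scaled for transcript length and for library size. In all, 8395 genes met every criterion other than the ratio, so the 67 genes are 0.798% of the genes that could have been taken. Because the ratio chose these genes, their ratios are given as a description and no test was made on them.

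The noni group was whole adult females of strain 14021-0428.25 kept for 24 h on instant *Drosophila* food mixed with 1 g of rotten *Morinda citrifolia* (noni) pulp. The control group was whole adult females of the same strain kept for the same time on control food. Per the study's methods, the flies were up to 3 days old when put on the diets. All flies were reared on cornmeal medium at 20 °C with a 16:8 light:dark cycle, and each diet had 3 libraries of pooled flies. The table holds 1 FPKM value per gene and diet, pooled by the authors over those 3 libraries, so neither an SD nor a value per library can be given, and the depth behind a single value is not known from it. The use of 1 strain and of whole bodies also limits the comparison: for every gene below, more cells of a type and more RNA per cell cannot be told apart.

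*D. sechellia* is specialised on the fruit of noni, which when ripe is toxic to most other *Drosophila* species and loses much of that toxicity as it rots. A fly that changes its food changes the enzymes its gut secretes and the storage and sugar metabolism of its fat body, the insect tissue with the roles of liver and adipose tissue. In females the ovary also makes eggshell in large amounts, and that output follows the food supply.

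The libraries carried the marks of female flies. Of the 3 yolk protein names looked for, 2 were matched and both were tested. Yp1 was at 23781 FPKM in noni and 13415 FPKM in control, and Yp2 was at 18179 FPKM in noni and 11056 FPKM in control. Of 11 matched genes known from the male accessory gland or testis (of 23 names), 8 were listed at 0 in both diets, and only Est-6, which is not confined to males, was above 1 FPKM, at 85.3 FPKM in noni and 52.3 FPKM in control. Outside that list, and named after its values were seen, the seminal fluid protein gene GM10799 (Sfp24F) was at 2.52 FPKM in noni and 1.20 FPKM in control. Yolk protein transcripts thus stood 1.77-fold and 1.64-fold higher in noni, and the 15 left-out eggshell genes had a median ratio of 3.39. Their part in the values of the 67 genes was not tested.

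Across the 67 genes, noni values ran from 15.02 to 1280 FPKM with a median of 36.7 FPKM, and control values ran from 2.53 to 635 FPKM with a median of 12.6 FPKM. Their median log2 ratio was 1.41, a ratio of 2.66, beside a median log2 ratio of 0.07 over the 8395 genes that could have been taken. Most of the genes were not far past the limit: 48 of 67 were between 2-fold and 3-fold, and 27 of those were under 2.5-fold. Of the 19 genes at 3-fold or more, 14 had a control value under 10 FPKM. A ratio of 3 or more with a mean under 20 FPKM forces such a control value, so this follows largely from the low means of these genes. Summed over the 67 genes, expression was 6764 FPKM in noni and 2711 FPKM in control.

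Doubling was the less frequent direction. Among the same 8395 genes, 137 were at most halved on noni, which is 1.63%. Among all 11231 genes with status OK and a value above 0 in both diets, 1.75% were at least doubled and 3.61% were at most halved. Low expression was over-represented among the 67 genes: 30 of them (44.8%) had a mean from 10 to under 20 FPKM, against 1847 of the 8395 genes (22.0%). In that lowest class 1.62% of the genes were doubled, and in the classes from 20 to 50, 50 to 200 and 200 to 2000 FPKM the share was 0.572%, 0.595% and 0.456%.

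**Figure D1:**
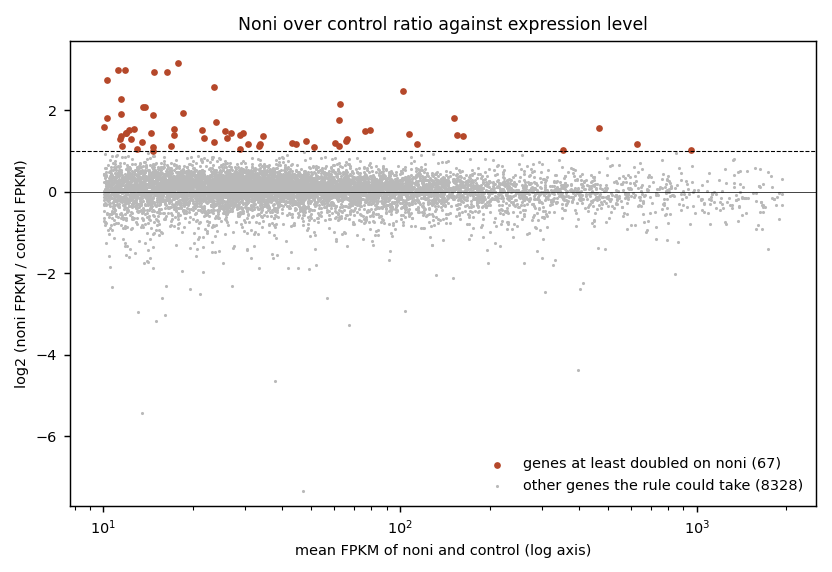
Log2 ratio of noni to control FPKM (vertical axis) against the mean FPKM of both diets (horizontal log axis) for the 8395 genes the rule could take; each point is a gene, the 67 doubled genes are large and red, and the dashed line marks a 2-fold ratio. Most of the highest ratios lie at the left, at means near 10 to 20 FPKM, and only 4 doubled genes lie above 200 FPKM.

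Names of *D. melanogaster* orthologs, which give most of what can be said about function, were at hand for 28 of the 67 genes. They came from the study's own lists of orthologs, of which a shortened copy was used. Of the 39 genes without a name, 32 have no row in the first of these lists and may still have an ortholog. For the other 7, a row was there but no ortholog name was at hand. These 28 genes had a median of 41.0 FPKM in noni and 16.8 FPKM in control. The roles given below are those of the *D. melanogaster* genes.

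**Figure D2:**
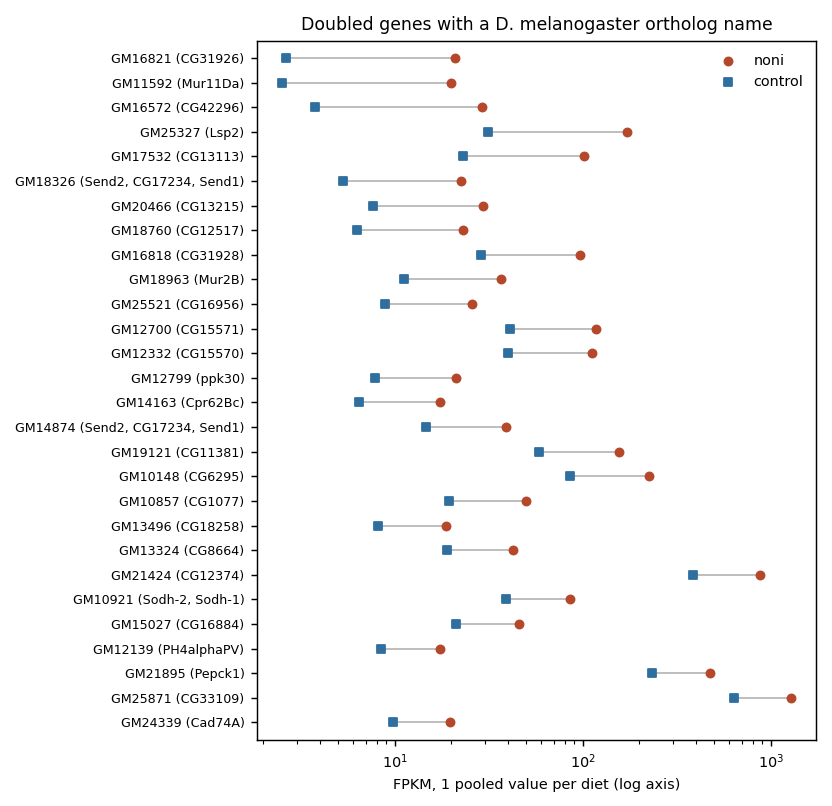
FPKM on noni (circles) and on control food (squares) for the 28 doubled genes with a *D. melanogaster* ortholog name, on a log axis, with 1 pooled value per diet and no error bars; genes are ordered from the highest ratio at the top to the lowest at the bottom. The top 3 genes are all under 4 FPKM in control, and GM25871 (CG33109) at 1280 FPKM in noni is the most abundant.

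Secreted proteases were among the highest ratios. GM16821, whose ortholog CG31926 is a predicted pepsin-like aspartic protease, was at 20.9 FPKM in noni and 2.65 FPKM in control, a 7.90-fold difference. Its neighbour GM16818, the ortholog of CG31928 and a protease of the same kind, was at 96.2 FPKM in noni and 28.6 FPKM in control, 3.37-fold. The 2 genes lie on scaffold 14 of the build dsec_caf1, at positions 1442868 to 1444100 and 1439467 to 1440726, with 2141 nt between them. The next tested gene beyond GM16821, GM16822, was at 3.84 FPKM in noni and 2.04 FPKM in control, and the next on the other side, GM16610, which lies 71808 nt from GM16818, was at 1.68 FPKM in noni and 2.41 FPKM in control. Of the 12 aspartic protease names looked for, 2 were matched, and both are these genes. Here and below, names were matched only through the ortholog lists and the names in the table, and the genes those lists hold are not a neutral sample of a family.

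A second group of proteases belongs to the serine endopeptidases of the spermatheca, the sperm storage organ of the female. GM18326 and GM14874 are both listed with the same orthologs, Send1, Send2 and CG17234. GM18326 (scaffold 5, 428183 to 428938) was at 22.4 FPKM in noni and 5.30 FPKM in control, 4.22-fold. GM14874 (scaffold 3, 605318 to 606055) was at 39.2 FPKM in noni and 14.6 FPKM in control, 2.69-fold. The third gene with these orthologs, GM18245, lies 454 nt from GM18326 and was by far the most abundant of them, at 344 FPKM in noni and 217 FPKM in control, 1.59-fold and thus under the limit. Summed over the 3 genes, expression was 405 FPKM in noni and 237 FPKM in control, 1.71-fold. Genes with the same orthologs may share reads, and the table does not show how those were divided, so the single ratios are uncertain and the sum is given beside them. Of the 9 names of the list, 3 were matched, to these 3 genes, all higher in noni. For GM18326 and GM14874 that direction follows from the rule.

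Among the metallocarboxypeptidases, members of the family differed in direction. GM21424, the ortholog of the metallocarboxypeptidase CG12374, was at 872 FPKM in noni and 386 FPKM in control, 2.26-fold. Of the 6 matched metallocarboxypeptidase genes (of 16 names), all tested, 2 were higher and 4 were lower in noni. GM21424 was the only one at least doubled, and the median log2 ratio was -0.29. The other higher gene was GM13458 (CG7025), at 59.6 FPKM in noni and 43.5 FPKM in control. GM17695 (CG17633), the other abundant one, was at 652 FPKM in noni and 878 FPKM in control. GM14841 (CG8562) was at 134 FPKM in noni and 268 FPKM in control, a ratio of 0.50 that was just short of the limit for halved. The remaining pair, GM13761 (CG8560) and GM13467 (CG18585), were lower too, with ratios of 0.87 and 0.77.

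The lipases gave the same mixture. GM10148, the ortholog of the predicted lipase CG6295, was at 224 FPKM in noni and 85.5 FPKM in control, 2.62-fold. The nearest tested gene on one side of it is another predicted lipase, GM10143 (CG6283), which was at 131 FPKM in noni and 153 FPKM in control. GM13496, the ortholog of the predicted lipase CG18258, was at 18.8 FPKM in noni and 8.14 FPKM in control, 2.31-fold. Of the 16 lipase names, 9 were matched to 8 genes, of which 5 were tested: these doubled ones and 3 that were lower. The lower ones besides GM10143 were GM24588 (CG10116), at 39.0 FPKM in noni and 63.1 FPKM in control, and GM10142 (CG6271 and CG6277), at 2.70 FPKM in noni and 4.06 FPKM in control. The 3 genes that were not tested were under 1.2 FPKM in both diets.

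A storage protein known from the fat body and enzymes of sugar metabolism were also doubled. GM25327, the ortholog of Lsp2, encodes a larval serum protein, a hexamerin that stores amino acids. It was at 173 FPKM in noni and 31.1 FPKM in control, 5.54-fold. Another doubled gene, GM19389, is listed at the very same locus (scaffold 0, 4306237 to 4309683) and was at 236 FPKM in noni and 67.3 FPKM in control, 3.51-fold. How reads were assigned to the 2 gene models was not tested, and their sum was at 409 FPKM in noni and 98.4 FPKM in control, 4.15-fold. The flanking tested genes stood near 1-fold: GM25326 was at 35.2 FPKM in noni and 34.7 FPKM in control, and GM25328 was at 30.5 FPKM in noni and 30.9 FPKM in control.

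The other genes on a list of fat body storage, serum and related proteins did not share the higher level of Lsp2. Of 6 names on that list, 5 were matched and tested, and the 4 besides Lsp2 were all lower in noni. GM14308 (Lsp1gamma), another larval serum protein, was at 19.7 FPKM in noni and 27.0 FPKM in control, and GM16778 (Lsp1beta) was at 24.7 FPKM in noni and 29.5 FPKM in control. GM24558 (Fbp1), the receptor for uptake of larval serum proteins, was at 58.8 FPKM in noni and 76.0 FPKM in control. GM17449 (Fbp2) was at 24.6 FPKM in noni and 36.8 FPKM in control, the lowest ratio of the list at 0.67. The median log2 ratio of the 5 genes was -0.37.

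GM21895, the ortholog of Pepck1, encodes phosphoenolpyruvate carboxykinase, which commits carbon to glucose synthesis. It was at 473 FPKM in noni and 232 FPKM in control, 2.04-fold, and so close to the limit. GM10921, the ortholog of the sorbitol dehydrogenases Sodh-1 and Sodh-2, which turn sorbitol into fructose, was at 85.1 FPKM in noni and 39.1 FPKM in control, 2.18-fold. Of 10 names of gluconeogenesis and of polyol or alcohol dehydrogenases, 5 were matched to 4 genes, 3 of them tested and all 3 higher in noni. For GM21895 and GM10921 that direction follows from the rule. The third was Adh, alcohol dehydrogenase, at 3688 FPKM in noni and 2890 FPKM in control, 1.28-fold. The gene left untested, Adhr, was at 2.05 FPKM in noni and 1.32 FPKM in control.

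Genes of extracellular coats formed another group. Mucin-related proteins carry many sugar chains and line the gut and other surfaces. GM11592, the ortholog of Mur11Da, was at 19.8 FPKM in noni and 2.53 FPKM in control, 7.84-fold, and GM18963, the ortholog of Mur2B, was at 36.7 FPKM in noni and 11.2 FPKM in control, 3.27-fold. Of 19 mucin names 4 were matched, all tested. The other matched mucins went both ways: GM17674 (Muc12Ea), one of the 15 left-out genes, was at 84.3 FPKM in noni and 36.6 FPKM in control, and GM16904 (Mur29B) was at 34.0 FPKM in noni and 68.1 FPKM in control, so that 3 of the 4 were doubled and 1 was halved.

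GM14163, the ortholog of Cpr62Bc, encodes a cuticle protein with the chitin-binding RR domain. It was at 17.4 FPKM in noni and 6.44 FPKM in control, 2.70-fold. Of 39 cuticle protein names 10 were matched and 7 of these were tested, with 6 higher and 1 lower in noni and a median log2 ratio of 0.35. Of these 7, GM14163 was the only one doubled. The list did not hold every member of the family: 3 further tested genes, named after their values were seen, were GM21386 (Cpr49Ah), at 6.80 FPKM in noni and 2.11 FPKM in control (3.23-fold), GM13791 (Cpr65Ea), at 3.86 FPKM in noni and 3.28 FPKM in control, and GM22121 (Cpr78E), at 13.9 FPKM in noni and 32.6 FPKM in control. Beyond the list, too, the family was therefore mixed in direction. The most abundant on the list, GM21380 (Cpr49Ae), was at 371 FPKM in noni and 232 FPKM in control, 1.60-fold. Among the rest of the list, GM19583 (Cpr76Bd), GM10137 (Cpr97Ea), GM10136 (Cpr97Eb) and GM22355 (Cpr78Cc) had ratios of 1.41, 1.27, 1.13 and 1.06, and GM12910 (Cpr100A) had a ratio of 0.92.

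GM12139, the ortholog of PH4alphaPV, encodes an alpha subunit of prolyl 4-hydroxylase, the enzyme that modifies proline residues of collagen. It was at 17.5 FPKM in noni and 8.44 FPKM in control, 2.07-fold. Of 8 names of such subunits, 2 were matched, and the other, GM12882 (PH4alphaEFB), was at 26.4 FPKM in noni and 26.3 FPKM in control.

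Membrane proteins were also among the genes with ortholog names. GM12799, the ortholog of ppk30, belongs to the pickpocket family of sodium channels. It was at 21.2 FPKM in noni and 7.80 FPKM in control, 2.72-fold. Of 30 pickpocket names 5 were matched and 2 of these were tested, and the other tested one, GM10769 (rpk), was at 45.1 FPKM in noni and 35.3 FPKM in control. GM24339, the ortholog of the cadherin Cad74A, a cell adhesion protein known from the follicle cells around the egg, was at 19.6 FPKM in noni and 9.80 FPKM in control. At 2.002-fold it had the lowest ratio of the 67 genes, and it was the only match among 16 cadherin names.

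A last group of genes with ortholog names have no role given here. GM25871 (CG33109) was the most abundant of all 67 genes, at 1280 FPKM in noni and 635 FPKM in control, 2.02-fold. GM16572 (CG42296) had the highest ratio of the group, at 28.9 FPKM in noni and 3.76 FPKM in control, 7.69-fold. GM19121 (CG11381) was at 156 FPKM in noni and 58.7 FPKM in control, 2.66-fold. Abundance and ratio thus ran apart in this group, and the scarcer members covered the range between. GM20466 (CG13215) was at 29.3 FPKM in noni and 7.68 FPKM in control, 3.82-fold, and GM25521 (CG16956) was at 25.7 FPKM in noni and 8.88 FPKM in control, 2.89-fold. GM10857 (CG1077) was at 49.6 FPKM in noni and 19.4 FPKM in control, 2.56-fold. GM13324 (CG8664) was at 42.7 FPKM in noni and 18.9 FPKM in control, 2.26-fold.

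Several doubled genes lie beside the eggshell genes that were left out. GM12332 (CG15570) and GM12700 (CG15571) are neighbours on scaffold 4, at 2614483 to 2619076 and 2620207 to 2620671. GM12332 was at 113 FPKM in noni and 39.9 FPKM in control, 2.82-fold, and GM12700 was at 118 FPKM in noni and 41.1 FPKM in control, 2.87-fold. The pair therefore had nearly the same level and ratio. On one side, 11161 nt away, is the left-out GM12699 (Femcoat, an eggshell gene), at 214 FPKM in noni and 40.9 FPKM in control, and on the other, 13266 nt away, is GM12701, at 14.3 FPKM in noni and 18.8 FPKM in control.

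GM17532 (CG13113, scaffold 3, 4991509 to 4992096) was at 102 FPKM in noni and 22.9 FPKM in control, 4.46-fold. It lies 1275 nt from the left-out GM17541 (CG13114), which was at 332 FPKM in noni and 208 FPKM in control, 1.60-fold. GM17673 (scaffold 20, 774212 to 778946) lies 425 nt from the left-out GM17674 (Muc12Ea). It was at 84.1 FPKM in noni and 36.8 FPKM in control, 2.28-fold, which matches its neighbour's 2.31-fold at almost the same level. Its neighbour on the other side, GM17672, went the opposite way, at 9.66 FPKM in noni and 19.7 FPKM in control.

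GM18893 shares its locus (scaffold 10, 1955671 to 1957197) with GM19220, the ortholog of the eggshell gene Vml, and with GM18892. GM18893 was at 234 FPKM in noni and 90.4 FPKM in control, 2.59-fold. GM19220 was at 797 FPKM in noni and 492 FPKM in control, 1.62-fold, and GM18892 was at 1115 FPKM in noni and 579 FPKM in control, 1.93-fold. All 3 gene models of the locus were thus higher in noni, and only the least abundant of them was doubled.

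Shared loci were frequent among the doubled genes. Of the 67 genes, 10 (14.9%) are listed at a locus with at least 1 other gene, against 531 of the 8395 genes that could have been taken (6.33%). The genes at most halved shared this trait, with 15 of 137 (10.9%). For these the table gives the span of the whole locus and not the gene's own ends. Leaving aside GM25327 and GM19389, which share theirs, the loci hold 30 further genes, of which 16 were tested with a value above 0 in both diets. None of the 16 was doubled, and their median log2 ratio was 0.03, from -0.87 to 0.95. A doubled mate within the abundance limits would itself be among the 67 genes, so that absence follows largely from the rule. Over all tested genes with a value above 0 in both diets, 1.75% were doubled.

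GM11192 stood farthest from the genes of its locus (scaffold 44, 227062 to 251128). It was at 18.9 FPKM in noni and 3.95 FPKM in control, 4.80-fold, and its 4 locus mates had ratios from 0.70 (GM11195) to 1.27 (GM11196, the ortholog of sni). The mates were also more abundant, at 84.1 FPKM or more in noni. GM13996 was at 15.9 FPKM in noni and 4.56 FPKM in control, 3.49-fold, against 9.75 FPKM in noni and 8.39 FPKM in control for GM14636. GM21275 was at 37.96 FPKM in noni and 13.5 FPKM in control, 2.82-fold, while GM20453 was at 37.1 FPKM in noni and 41.9 FPKM in control. In each of these loci the doubled gene and its mates differed in ratio, and how the fragments were divided among the gene models was not tested.

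GM24838 was at 24.98 FPKM in noni and 9.52 FPKM in control, 2.63-fold, beside GM25188 at 276 FPKM in noni and 269 FPKM in control. GM12018 lies in the widest locus, which spans 114776 nt of scaffold 32 and lists 18 genes. It was at 157 FPKM in noni and 69.6 FPKM in control, 2.26-fold, while the 5 other tested genes there had ratios from 0.55 (GM12016) to 1.51 (GM12020). GM15027 (CG16884) was at 45.5 FPKM in noni and 21.1 FPKM in control, 2.16-fold, with the tested mates GM15034 and GM15385 at ratios of 1.84 and 0.71. GM18760 (CG12517) was at 23.1 FPKM in noni and 6.26 FPKM in control, 3.69-fold, and its only locus mate, GM11325, was not tested and was listed at 0 in noni and at 0.0800 FPKM in control.

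**Figure D3:**
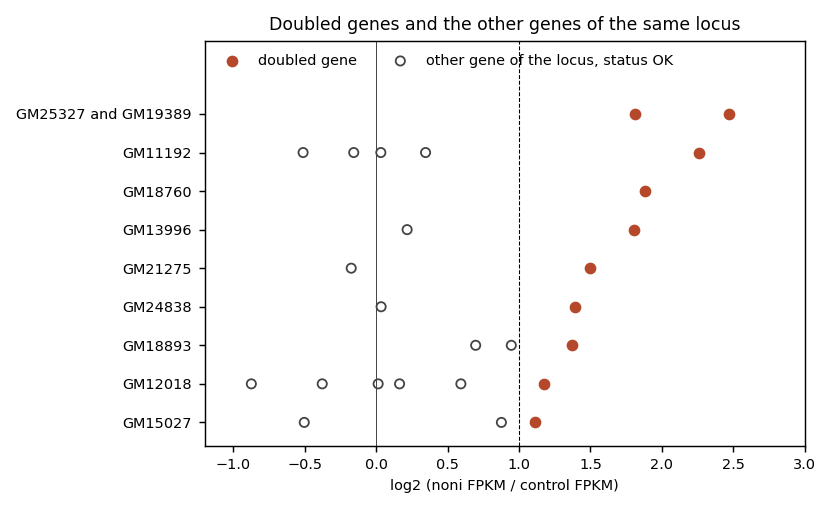
Log2 ratio of noni to control FPKM (horizontal axis) for the doubled genes that share a locus (filled) and for the other genes of that locus with status OK (open), 1 row per locus named by its doubled genes; the solid line is no difference and the dashed line a 2-fold ratio. GM25327 and GM19389 lie in 1 row, and the open points run from -0.87 to 0.95. Doubled genes that met the rule are drawn filled, so the open points lie left of the dashed line largely by definition.

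Beyond shared loci, the nearest tested gene on each side was also looked at. A tested gene on the same scaffold flanked 61 of the 67 genes, on both sides for 55 and on 1 side for 6. These nearest neighbours were 114 distinct genes, among them 4 of the 67 genes and 3 left-out genes. The left-out ones, GM12699, GM17674 and GM17541, had ratios of 5.23, 2.31 and 1.60. The other 107 had a median log2 ratio of 0.06, with quartiles of -0.22 and 0.31, beside a median of 0.05 and quartiles of -0.20 and 0.25 over all 11231 tested genes. Of these 107 flanking genes 1 was doubled and 4 were halved, beside 1.75% doubled and 3.61% halved over all 11231 tested genes. The doubled one, GM11711, was at 5.03 FPKM in noni and 2.07 FPKM in control and lies 280 nt from GM11713. Doubled neighbours that met the rule had been set apart beforehand, so the low count of doubled genes among the 107 follows largely from the selection. The 67 genes were spread over 32 scaffolds, and 31.3% of them were on scaffolds 0, 1 and 4, against 37.2% of the genes that could have been taken.

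Many of the doubled genes were short. Of the 57 genes alone at their locus, 21 (36.8%) had a locus shorter than 300 nt, against 349 of 7864 genes that could have been taken (4.44%). The median locus length was 589 nt against 1518.5 nt. The genes at most halved on noni shared this feature, with 29 of 122 (23.8%) under 300 nt and a median of 481 nt. Among the 349 short genes 6.02% were doubled and 8.31% halved, while among the 1913 genes of 3000 nt or more 0.209% were doubled and 0.261% halved. The short genes were therefore over-represented in both directions, and their log2 ratios were also more spread, with quartiles of -0.48 and 0.37 against -0.02 and 0.30 for the longest class. The limit of 300 nt was set after the lengths had been seen.

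**Figure D4:**
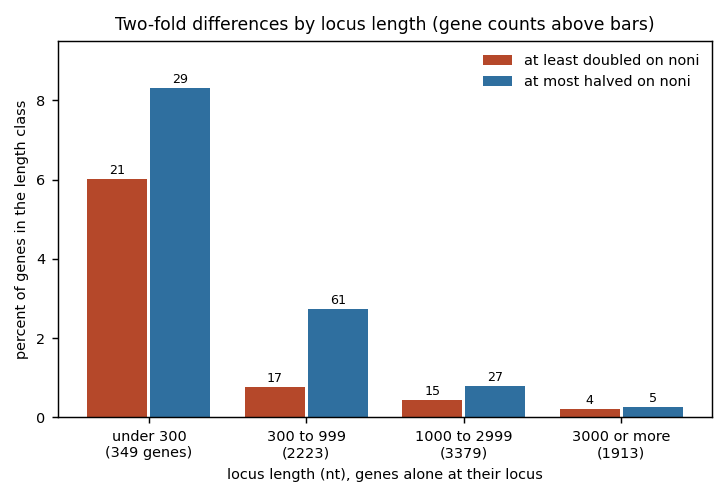
Percent of genes at least doubled (left bar of each pair) and at most halved (right bar) on noni in 4 classes of locus length, for genes alone at their locus among those the rule could take; the number above each bar is the count of genes. In the shortest class 21 genes were doubled and 29 halved, and both shares fall with each longer class, to 4 and 5 genes.

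All 21 short genes lack an ortholog name here, so nothing can be said of their function. They had a median of 37.2 FPKM in noni and 14.9 FPKM in control, and ratios from 2.08 to 8.95. GM12938 (scaffold 4, 6001295 to 6001480, 186 nt) had the highest ratio of all 67 genes, at 32.0 FPKM in noni and 3.58 FPKM in control. GM24958 (234 nt) was at 26.3 FPKM in noni and 3.41 FPKM in control, 7.70-fold, and GM19707 (174 nt) was at 17.9 FPKM in noni and 2.68 FPKM in control, 6.68-fold. GM23806, at 102 nt the shortest, was the most abundant of them, at 701 FPKM in noni and 236 FPKM in control, 2.97-fold. A short locus went with ratios past 2-fold in both directions, and the part of locus length in these ratios was not tested.

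The next genes by ratio were GM19532 (150 nt), at 18.1 FPKM in noni and 4.81 FPKM in control, and GM19197 (195 nt), at 18.9 FPKM in noni and 6.47 FPKM in control. GM10324 (228 nt) was at 31.7 FPKM in noni and 11.2 FPKM in control, and GM13530 (162 nt) was at 17.4 FPKM in noni and 6.45 FPKM in control. GM22823 (168 nt) was at 43.2 FPKM in noni and 16.1 FPKM in control, and GM24499 (192 nt) was at 41.8 FPKM in noni and 16.0 FPKM in control. These 6 had ratios from 2.61 to 3.76. GM17450 (249 nt) was at 16.5 FPKM in noni and 6.43 FPKM in control, and GM11817 (270 nt) was at 37.2 FPKM in noni and 14.9 FPKM in control. GM11817 has a neighbour in the opposite direction, GM11818, 129 nt away, at 151 FPKM in noni and 327 FPKM in control. GM11025 (249 nt) was at 31.2 FPKM in noni and 12.6 FPKM in control.

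A further 8 short genes had ratios of 2.08 to 2.46, and most were more abundant than the preceding ones. GM14590 (129 nt) was at 93.9 FPKM in noni and 38.2 FPKM in control, and GM19497 (174 nt) was at 92.5 FPKM in noni and 39.3 FPKM in control. GM26575 (226 nt) was at 70.0 FPKM in noni and 32.7 FPKM in control, and GM17576 (183 nt) was at 67.4 FPKM in noni and 28.7 FPKM in control. None of these 4 was under 28 FPKM in control. GM17441 (171 nt) was at 61.9 FPKM in noni and 27.5 FPKM in control, and GM19586 (165 nt) was at 60.3 FPKM in noni and 26.3 FPKM in control. GM11682 (213 nt) was at 38.8 FPKM in noni and 18.7 FPKM in control, and GM11185 (281 nt) was at 33.0 FPKM in noni and 14.3 FPKM in control.

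The remaining genes without an ortholog name, each alone at a locus of 300 nt or more, were mostly scarce. GM15038 (315 nt) was at 40.3 FPKM in noni and 6.82 FPKM in control, 5.91-fold, and GM19779 (448 nt) was at 21.9 FPKM in noni and 5.25 FPKM in control, 4.18-fold. GM11810 was at 15.02 FPKM in noni and 5.05 FPKM in control, 2.97-fold, and GM11713 was at 18.1 FPKM in noni and 6.34 FPKM in control, 2.85-fold. All 4 were under 7 FPKM in control. GM12713 was at 17.5 FPKM in noni and 7.20 FPKM in control, and GM24761 was at 16.1 FPKM in noni and 6.63 FPKM in control. GM19946 was at 46.5 FPKM in noni and 20.6 FPKM in control, the most abundant of this group in control. GM15131 was at 23.1 FPKM in noni and 10.7 FPKM in control. GM17769 was at 15.7 FPKM in noni and 7.30 FPKM in control, and GM23009 was at 19.9 FPKM in noni and 9.35 FPKM in control, so that these last 6 had ratios from 2.13 to 2.43.

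**Figure D5:**
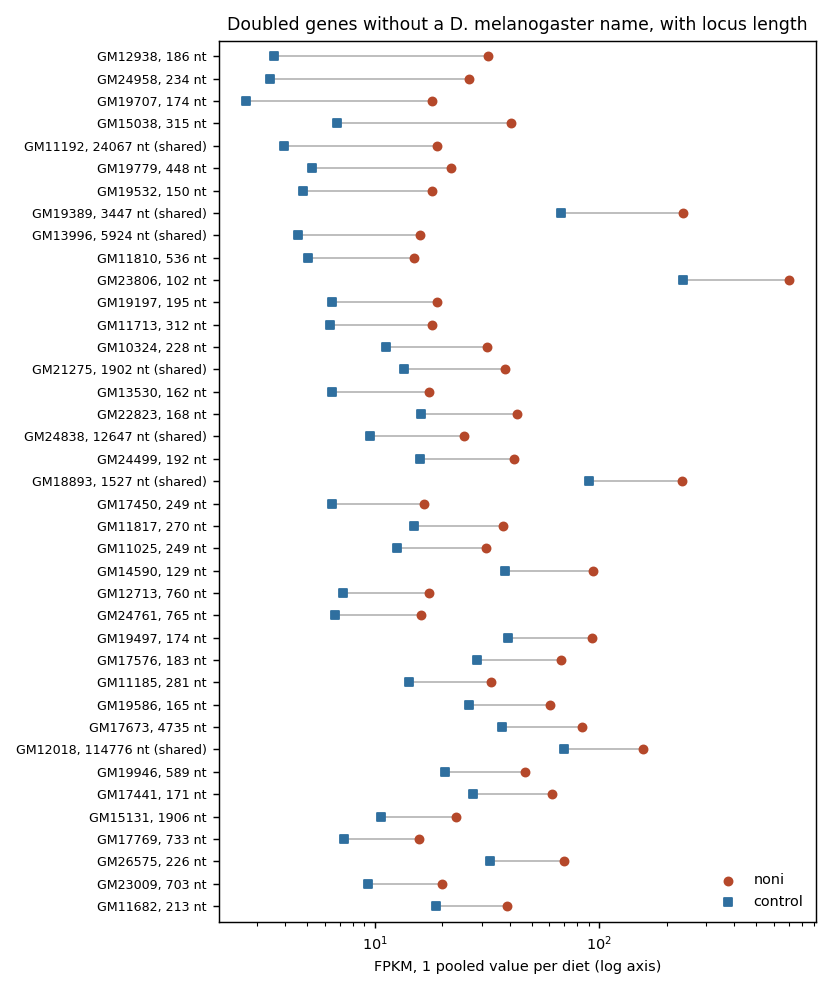
FPKM on noni (circles) and on control food (squares) for the 39 doubled genes without a *D. melanogaster* name, on a log axis, with 1 pooled value per diet and no error bars; labels give the locus length, and "shared" marks a locus listed with other genes. Genes are ordered by ratio, from GM12938 at the top to GM11682 at the bottom, and 21 of them have a locus of their own under 300 nt.

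Scaffolds are pieces of the genome assembly that were not joined to others, and those with few genes were also more frequent. On scaffolds with fewer than 10 genes in the table lie 11 of the 67 genes (16.4%), against 479 of the 8395 genes (5.71%). Of these 11 genes, 8 are among the short ones. The genes at most halved lay there in 11 of 137 cases (8.03%).

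Around the limits of the rule, the values were continuous. Just inside the 2-fold limit, above Cad74A, were GM25871 at 2.02-fold, GM21895 at 2.04-fold, GM12139 at 2.07-fold and GM11682 at 2.08-fold. Just outside it were GM12520, at 206 FPKM in noni and 104 FPKM in control (1.98-fold), GM18168, at 62.8 FPKM in noni and 31.8 FPKM in control (1.98-fold), and GM19209, at 19.5 FPKM in noni and 10.002 FPKM in control (1.95-fold). GM19428, at 18.6 FPKM in noni and 9.57 FPKM in control (1.94-fold), and GM18892 (1.93-fold) followed. At the lower limit of abundance, GM11810 with a mean of 10.04 FPKM was the last gene taken, and GM18680, at 14.6 FPKM in noni and 4.51 FPKM in control, was the first left out. At the upper limit no gene was near: GM25871 had the highest mean, 958 FPKM, and among genes with GM names that were not left out, the only doubled one with a mean of 2000 FPKM or more was GM19377 (fit), at 7953 FPKM in noni and 2342 FPKM in control.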

How the data were processed

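RNA of whole adult females was measured by RNA-seq after 24 h on noni or control food, with 3 libraries per diet. Per the submitters' notes and the study's methods, the tools were FastQC for read quality, Bowtie2 for alignment (build dsec_caf1) and Cuffdiff for expression, with geometric normalization and bias correction; their versions are not given in the sources used here. The FPKM values in the deposited table are the authors' pooled values, 1 per gene and diet. Its columns of log2 fold change, test statistic, p-value and q-value hold the authors' own comparison and were not used.

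From the FPKM values the noni to control ratio and its log2 were computed with Python 3.11.15, numpy 2.4.6, pandas 2.3.3 and matplotlib 3.10.9. A run on simulated data checked only that genes planted past 2-fold were told from genes under it, not the other criteria. With pooled values no test, SD or interval was possible. Locus starts count from 0 in the table (49.7% of single-gene locus lengths are then multiples of 3, against 25.1% otherwise), and 1 was added. Ortholog names, not values, came from the study's supplementary lists. None of the names in the RefSeq gene table matched, and no sequences were used. The members and the gene lists were chosen with earlier results of these data known. Genes named are all 67 genes, the 5 just under the limit, locus mates, neighbours of adjacent members and the matched genes of lists with a member, and further neighbours and limit genes were named after their values were seen. Alternatives changed the fold, the abundance limits, centring, the pseudocount, the name forms and the treatment of shared or short loci.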

Additional observations from a re-analysis of the deposited data

How the results depend on the processing

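The number of doubled genes was 67. It was 167 with a mean of at least 1 FPKM and 26 with at least 30 FPKM, and it was 306 at 1.5-fold and 19 at 3-fold. It stayed within 1.5 times of 67 under the other alternatives: 64 after centring on the median of all tested genes, 65 with 1 FPKM added, 68 with no upper limit, 66 with each locus counted once, 80 with every form of gene name and 77 with the 15 left-out genes kept. Alternatives chosen after seeing the data gave 57 genes alone at their locus and 46 with a locus of at least 300 nt. The median log2 ratio of 1.41 became 1.37 after centring, 1.33 with 1 FPKM added, 1.40 with each locus once, 1.23 with a mean of at least 30 FPKM, 1.39 for genes alone at their locus and 1.43 for loci of at least 300 nt. The share doubled, 0.798%, became 0.762% after centring, 0.774% with 1 FPKM added and 0.572% for loci of at least 300 nt. Over all tested genes above 0 in both diets, of any abundance or name and with the left-out genes, it was 1.75%. After centring and with 1 FPKM added, 3 and 2 of the 67 genes came under 2-fold. Neither change could reverse the sign of a log2 ratio that the rule had taken at 2-fold or more. No paired analysis was possible because the table holds 1 pooled value per diet, and for the same reason no library could be left out. The promoter search was not run because no sequences were used.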

Other observations

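Outside the limits on abundance and name form, 100 tested genes with GM names and a mean under 10 FPKM were also at least doubled on noni. One of them, chosen after its values were seen, is GM11522 (CG12716), at 12.3 FPKM in noni and 2.498 FPKM in control, 4.91-fold, which lies 4809 nt from the mucin-related gene GM11592 (Mur11Da). Among genes with other name forms and a mean of at least 10 FPKM, 14 were doubled. Of these, 10 were snoRNA genes, 1 was a 5.8S rRNA gene and 1 an snRNA gene. The 2 others were MtnA and Obp19c. MtnA, a metallothionein that binds heavy metals, was at 16470 FPKM in noni and 7387 FPKM in control (2.23-fold). Obp19c, an odorant binding protein, was at 276 FPKM in noni and 136 FPKM in control (2.03-fold). Genes halved outside these limits were not counted, so the counts of doubled genes give no direction for small RNA genes as a class. The paper reports several snoRNA and rRNA genes as downregulated on noni. Over all 11231 tested genes above 0 in both diets, 1.75% were at least doubled and 3.61% were at most halved.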
